A study of Mus musculus with 6 samples.

Results

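Chromosome segregation genes of the centromere, the kinetochore and the spindle checkpoint were followed by mRNA sequencing in a cell line that the labels call SaOS2, known as a human osteosarcoma line. The members were 48 named genes, taken by symbol from the deposited count tables of 17144 genes. All 48 were listed, and all 48 passed the filter on low counts that left 12682 genes for testing. Library titles carry the letter D or C and a replicate number, which gave 3 D libraries and 3 C libraries, 6 in all. The series title concerns the effect on the line's mRNA of an agent called DDTC(I). No label spells out the letters, the dose, the time or the vehicle, nor says whether libraries with the same letter are separate cultures. The p-values therefore measure the spread between libraries only, and this spread may be technical. Every label gives the same line and the same RNA and library kits for both groups. The question is how the mRNA levels of these genes differ between D and C.

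Several measurements go against the labels. Mouse is the organism in the labels, while the files list genes under human symbols. Levels are given as CPM, a gene's count relative to the library total, adjusted by edgeR's TMM factors. ALPL, the alkaline phosphatase that SaOS2 is known to make in quantity, had 0.508, 0.781 and 0.681 CPM in D, against 0.666, 0.555 and 0.379 CPM in C. These levels do not match that known feature of the line, so the cells are called here by their label only. RB1, which is known as damaged in SaOS2, had 44.1, 60.9 and 38.3 CPM in D, against 34.3, 35.9 and 37.1 CPM in C. Counts per gene do not show whether RB1 is intact, so these values do not bear on the label. Library totals ranged from 18446443 to 19802340 counts in D and from 18532763 to 20602771 in C, and a floor of 3 counts was worth 0.146 to 0.163 CPM. Of the markers of other cell types, the summed level ranged from 14.3 to 15.5 CPM in D and from 20.2 to 25.1 CPM in C for 5 endothelial genes, from 101 to 135 CPM in D and from 79.4 to 88.8 CPM in C for 5 epithelial genes, and from 459 to 501 CPM in D and from 478 to 499 CPM in C for 6 blood cell genes, with CD68, a lysosomal protein that many cells make, at nearly all of that sum. Of these, 2 of 4 tested endothelial genes were lower in D (PECAM1 and CDH5) and 2 of 3 tested epithelial genes were higher (KRT18 and CDH1), while the 1 blood cell gene tested, CD68, was not called. The call of PECAM1 was lost without C replicate 1, C replicate 2, D replicate 1 or D replicate 2. The defining blood cell genes PTPRC and CD3E stayed at or under 0.41 CPM in every library. The part of these markers in the results was not tested. Of 11 genes that mark SaOS2 or osteoblasts, 8 could be tested, of which 5 were lower in D. Bone collagen COL1A1 had 5.59, 4.42 and 4.88 CPM in D, against 24.3, 22.5 and 23.03 CPM in C, and its partner COL1A2 had 52.3, 49.3 and 48.2 CPM in D, against 207, 154 and 167 CPM in C, while SP7, IBSP and BGLAP, which mark mature osteoblasts, had at most 3 counts in any library.

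A centromere is the chromosome site where nucleosomes carry CENP-A, a variant of histone H3, in place of the usual histone. A constitutive network of CENP proteins sits on this chromatin through the cell cycle. In mitosis it recruits the outer kinetochore, whose NDC80 complex grips spindle microtubules. The spindle checkpoint delays anaphase until every kinetochore is attached, and the chromosomal passenger complex corrects wrong attachments. Many of these genes are transcribed mainly in G2 and mitosis, so their mRNA in a bulk culture follows the share of dividing cells as well as the level per cell, and fewer cells of that stage and less RNA per cell cannot be told apart.

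More of these genes were lower in D than higher, and the share called lower differed between parts of the structure, a difference not tested. Of 48 members, 24 were called lower and 11 higher at an adjusted p under 0.05 (edgeR quasi-likelihood test, Benjamini-Hochberg adjustment over all 12682 genes), and 13 were not called. Among all genes tested, 27.7% were lower and 26.8% higher, and the 11 higher members make 22.9% of the 48. At least a 2-fold fall was found for 14 members, 29.2%, against 10.1% of all genes, and at least a 2-fold rise for 1, SKA1, against 8.37% of all genes. The median log2 fold change of the members was −0.35, and that of all genes was −0.02. In 26 members all D libraries lay below all C libraries, and in 12 all lay above, beside 32.1% and 30.6% of all genes. Scaled by library size only, a setting that moved the median of all genes to −0.17, 28 members were called lower and 8 higher. In that setting 4449 of all 12682 genes tested were called lower and 2586 higher.

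**Figure D1:**
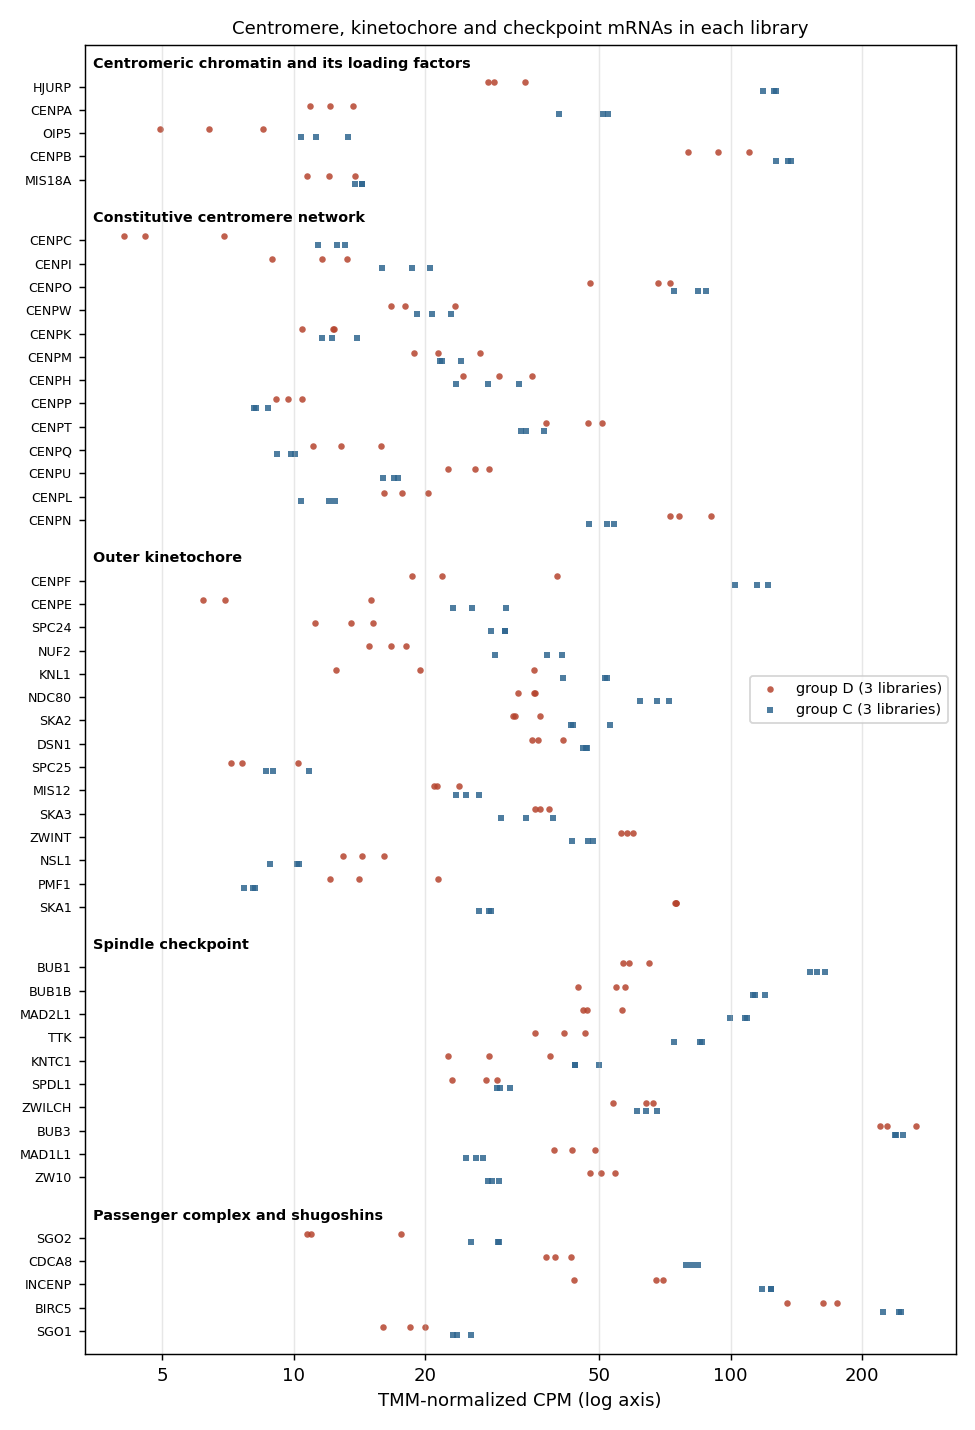
TMM-normalized CPM on a log axis (x) of each of the 48 genes (rows, grouped by role) in the 3 D libraries (circles) and the 3 C libraries (squares). HJURP, CENPA, CENPF, BUB1 and CDCA8 show D libraries well below the C libraries, SKA1, ZW10, MAD1L1 and CENPN show D libraries above them, and BUB3, ZWILCH and CENPM overlap.

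By role, most genes of centromeric chromatin and all those of the passenger complex were called lower. Calls in the constitutive network went both ways, in numbers that depended on the scaling. The shares over all genes tested were 27.7% lower and 26.8% higher. Among 5 genes of centromeric chromatin and its loading 4 were lower and 0 higher (median log2 fold change −0.82). Among 13 genes of the constitutive network 2 were lower (15.4%) and 5 higher (38.5%), with a median of 0.08. The excess over 26.8% rests on few genes, among them CENPQ and CENPT, called in 8 and 6 of 18 alternative settings. Without C replicate 1, C replicate 2, C replicate 3 or D replicate 3, 3 genes of the network were higher. With library size only, and on log2(FPKM + 1) and log2(FPKM + 0.1), 3 were lower and 3 higher. Among 15 outer kinetochore genes 8 were lower (53.3%) and 4 higher (26.7%, the share of all genes), with a median of −0.31. Without D replicate 1, 5 of them were lower. Among 10 checkpoint genes 5 were lower (50%) and 2 higher (20%), with a median of −0.40. All 5 genes of the passenger complex and the shugoshins were lower (median −1.01). Differences between these classes were not tested. In what follows, each size given after "rose by" or "fell by" is a log2 fold change of D over C with its standard error, from 3 libraries in each group.

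CENP-A and its dedicated chaperone fell by nearly the same factor. CENPA, the histone variant itself, had 12.1, 10.9 and 13.7 CPM in D, against 52.5, 51.2 and 40.4 CPM in C. HJURP, the chaperone that delivers new CENP-A to centromeres, had 33.9, 28.7 and 27.9 CPM in D, against 126, 127 and 119 CPM in C. The D libraries lay far below the C libraries for both, with log2 fold changes of −1.98 ± 0.15 (SE; adjusted p = 2.6e-05, edgeR) and −2.04 ± 0.11 (adjusted p = 8.1e-06, edgeR). OIP5, also called MIS18-beta, a subunit of the complex that licenses centromeres for loading, had 6.38, 4.95 and 8.52 CPM in D, against 11.2, 13.3 and 10.4 CPM in C, with no overlap and a smaller log2 fold change of −0.82 ± 0.20 (adjusted p = 0.0086, edgeR). The strand setting of the counting is not given in the sources used here, so reads of OIP5 and of its antisense neighbour OIP5-AS1 cannot be told apart. Its partner MIS18A had 12.02, 10.7 and 13.8 CPM in D, against 13.8, 14.3 and 14.4 CPM in C. One D library of MIS18A lay among the C libraries, and its log2 fold change of −0.22 ± 0.13 was not called (adjusted p = 0.18, edgeR), although it was called lower with library size only (−0.37) and with length trends removed (−0.31). CENPB, which binds a DNA box in alpha satellite repeats, fell by 0.49 ± 0.13 (adjusted p = 0.011, edgeR).

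In the constitutive network the DNA-contacting scaffold CENPC was the gene that fell most, and a set of its partners rose. CENPC, which links CENP-A nucleosomes to the outer kinetochore, had 4.57, 6.92 and 4.09 CPM in D, against 13.1, 12.6 and 11.3 CPM in C. CENPI, of the CENP-HIKM group, had 11.6, 13.2 and 8.91 CPM in D, against 18.7, 15.95 and 20.5 CPM in C. Neither overlapped between the groups, and the log2 fold changes were −1.24 ± 0.20 (adjusted p = 0.00093, edgeR) and −0.71 ± 0.17 (adjusted p = 0.0072, edgeR). The 3 other genes of CENP-HIKM were not called, with log2 fold changes between −0.11 for CENPK and 0.08 for CENPH. CENPM had 21.3, 18.8 and 26.7 CPM in D, against 21.8, 24.1 and 21.6 CPM in C, and CENPH had 29.5, 24.4 and 35.1 CPM in D, against 27.8, 32.8 and 23.5 CPM in C. The libraries of the groups were mixed in both, and neither was called. The approximate 95% interval of the log2 fold change was −0.35 to 0.32 for CENPM and −0.31 to 0.47 for CENPH.

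CENPN and CENPL, which form a pair that reads the CENP-A nucleosome, rose by nearly the same amount. CENPN had 76.3, 72.8 and 90.2 CPM in D, against 52.1, 54.2 and 47.4 CPM in C, and CENPL had 17.7, 20.3 and 16.1 CPM in D, against 12.04, 10.4 and 12.4 CPM in C. Every D library was above every C library in both, with log2 fold changes of 0.64 ± 0.12 (adjusted p = 0.0021, edgeR) and 0.63 ± 0.13 (adjusted p = 0.0041, edgeR). CENPU, a CENP-OPQU subunit that docks the kinase PLK1, had 22.5, 26.03 and 28.1 CPM in D, against 16.04, 17.3 and 16.96 CPM in C, and rose by 0.61 ± 0.12 (adjusted p = 0.0031, edgeR). The rises of its partner CENPQ (0.45 ± 0.15, adjusted p = 0.034, edgeR) and of CENPT, a second anchor for the NDC80 complex (0.38 ± 0.13, adjusted p = 0.042, edgeR), were less firm. CENPQ was not called without C replicate 1 (0.46), C replicate 2 (0.48), C replicate 3 (0.41) or D replicate 3 (0.31), nor with library size only (0.29). CENPT was not called without C replicate 1 (0.34), C replicate 2 (0.36), C replicate 3 (0.43), D replicate 1 (0.35) or D replicate 3 (0.30), nor with library size only (0.22). CENPO had 68.4, 72.7 and 47.6 CPM in D, against 74.2, 84.5 and 87.99 CPM in C. All D libraries of CENPO lay below the C libraries, but the spread within D was wide and the log2 fold change of −0.39 ± 0.16 was not called (adjusted p = 0.075, edgeR). It was called without D replicate 2 (−0.47) and with library size only (−0.53). CENPP (0.22 ± 0.12) and CENPW, the histone-fold partner of CENPT (−0.12 ± 0.15), were not called, and CENPW was called lower with length trends removed (−0.31).

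The outer kinetochore held the largest rise of all 48 genes, SKA1, and one of the 3 largest falls, CENPF. The order of those falls was not stable: with all libraries CENPF fell slightly more than HJURP and CENPA, but less than both with length trends removed (−1.87), on log2(FPKM + 1) with or without the filter (−1.91), and without C replicate 3 (−2.02), D replicate 1 (−1.94) or D replicate 3 (−1.86). CENPF, a very large kinetochore protein that also marks G2 cells, had 21.8, 40.1 and 18.6 CPM in D, against 115, 103 and 122 CPM in C. CENPE, the kinesin that carries chromosomes to the spindle equator, had 6.94, 14.99 and 6.19 CPM in D, against 25.6, 23.1 and 30.6 CPM in C. Both were lower in each D library, with log2 fold changes of −2.07 ± 0.26 (adjusted p = 0.00028, edgeR) and −1.49 ± 0.31 (adjusted p = 0.0035, edgeR), and D replicate 2 was the highest of the D libraries in both. SKA1, of the SKA complex that holds kinetochores on shrinking microtubules, had 74.7, 75.1 and 75.2 CPM in D, against 26.5, 27.9 and 28.2 CPM in C. The D libraries of SKA1 were almost equal to one another and about 2.7-fold above C, a log2 fold change of 1.44 ± 0.10 (adjusted p = 1.7e-05, edgeR). Its partners did not rise. SKA2 fell by 0.47 ± 0.13 (adjusted p = 0.012, edgeR), a call lost without C replicate 2 (−0.37) and without D replicate 1 (−0.44), and SKA3 had 35.6, 38.5 and 36.6 CPM in D, against 29.8, 34.02 and 39.1 CPM in C, with overlapping groups and a log2 fold change of 0.10 ± 0.13 (adjusted p = 0.51, edgeR).

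**Figure D2:**
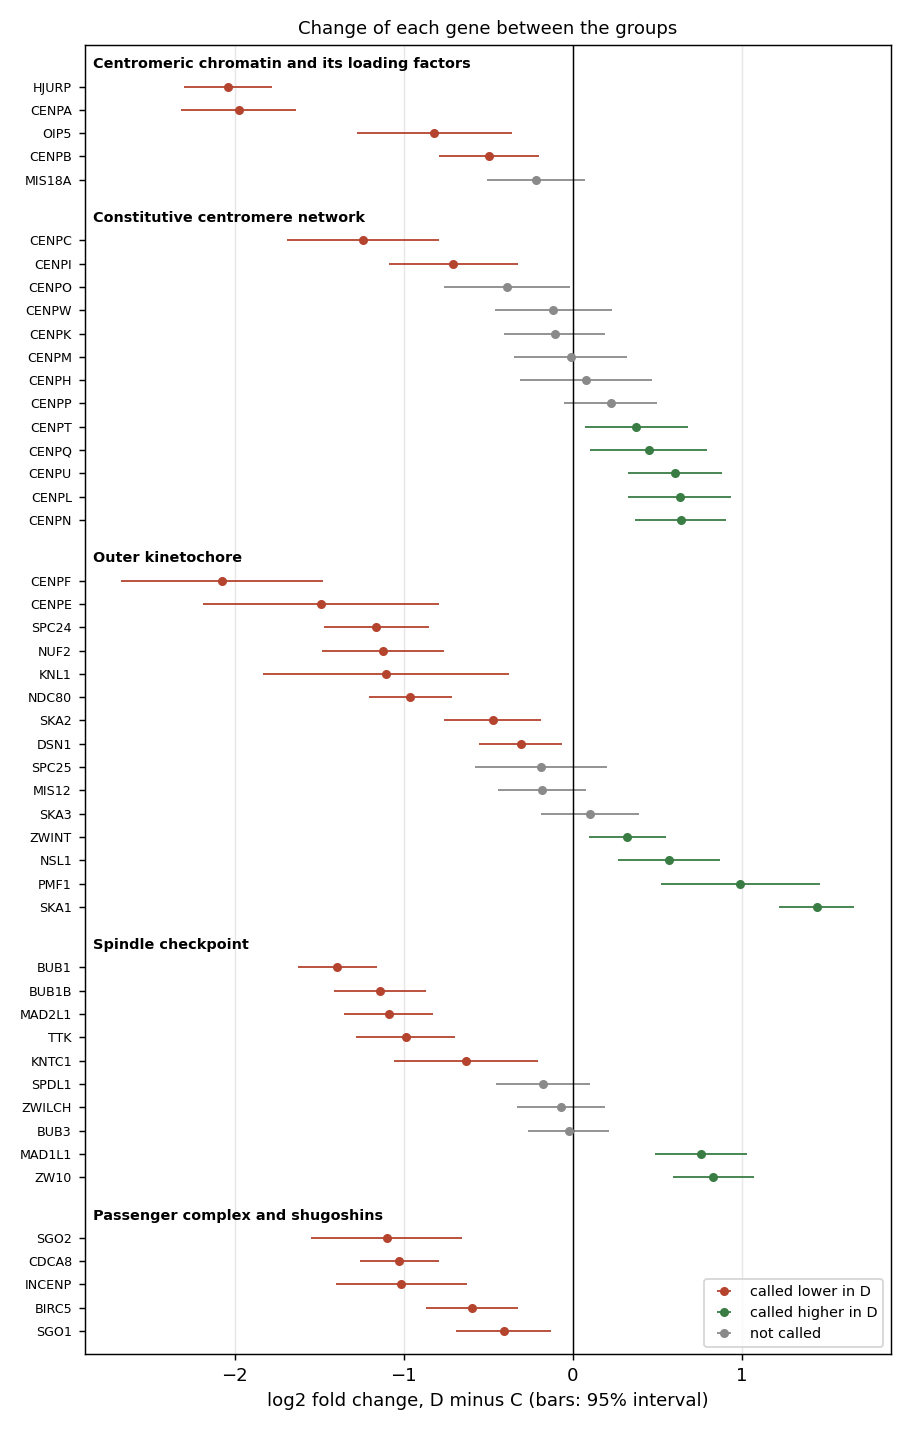
Log2 fold change, D minus C, of each gene (x), from the edgeR fit, with approximate 95% intervals as bars. Rows are grouped by role and ordered by change, and run from −2.07 for CENPF to 1.44 for SKA1, with the constitutive network centred near 0.

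Of the 4 genes of the NDC80 complex, 3 were called lower, near 2-fold each. NDC80, the microtubule-binding subunit, had 32.6, 35.7 and 35.5 CPM in D, against 67.7, 72.2 and 62.1 CPM in C, and fell by 0.96 ± 0.11 (adjusted p = 0.00016, edgeR). Its coiled-coil partner NUF2 fell by 1.12 ± 0.16 (adjusted p = 0.0005, edgeR). SPC24, which anchors the complex to the inner kinetochore, had 15.2, 11.2 and 13.5 CPM in D, against 28.3, 30.4 and 30.5 CPM in C, with no overlap and a log2 fold change of −1.16 ± 0.14 (adjusted p = 0.00019, edgeR). SPC25, the direct partner of SPC24, had 7.62, 7.18 and 10.2 CPM in D, against 8.97, 10.9 and 8.62 CPM in C, and its groups overlapped (−0.19 ± 0.17, adjusted p = 0.38, edgeR). Its approximate 95% interval ran from −0.58 to 0.20, and it was called lower with length trends removed (−0.32). KNL1, the scaffold on which checkpoint proteins gather, had 19.4, 35.5 and 12.5 CPM in D, against 51.6, 41.3 and 52.3 CPM in C. The D libraries of KNL1 were spread widely but all below C, and it fell by 1.10 ± 0.32 (adjusted p = 0.018, edgeR). Its call was lost without C replicate 1 (−1.06), C replicate 3 (−1.05) or D replicate 1 (−1.01). ZWINT, its binding partner, rose by 0.32 ± 0.10 (adjusted p = 0.024, edgeR), a call lost without C replicate 1 (0.27), C replicate 2 (0.33), C replicate 3 (0.35) or D replicate 1 (0.30) and with library size only (0.17).

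The MIS12 complex, which joins the centromere to the NDC80 complex, went both ways. PMF1, one of its subunits, had 14.1, 12.1 and 21.4 CPM in D, against 7.69, 8.04 and 8.15 CPM in C, and NSL1 had 12.98, 14.3 and 16.1 CPM in D, against 8.81, 10.2 and 10.3 CPM in C. Both rose without overlap, by 0.99 ± 0.21 (adjusted p = 0.0038, edgeR) and 0.57 ± 0.13 (adjusted p = 0.0066, edgeR). PMF1 is known to share a read-through transcript with its neighbour BGLAP, which had at most 0.113 CPM in any library. MIS12 had 21.2, 20.98 and 23.9 CPM in D, against 23.6, 26.6 and 24.8 CPM in C, with 1 D library among the C libraries and a log2 fold change of −0.18 ± 0.11 that was not called (adjusted p = 0.2, edgeR) but was called lower with library size only (−0.34). DSN1 fell by 0.31 ± 0.11 (adjusted p = 0.037, edgeR), a call that was lost without C replicate 1 (−0.32), C replicate 2 (−0.31), C replicate 3 (−0.31), D replicate 1 (−0.28) or D replicate 2 (−0.23) and with RLE factors (−0.28).

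In the checkpoint, BUB1, BUB1B, MAD2L1, TTK and KNTC1 were called lower, MAD1L1 and ZW10 higher, and BUB3, ZWILCH and SPDL1 were not called. BUB1, a kinase that marks the inner centromere and recruits checkpoint proteins, had 58.7, 65.1 and 56.8 CPM in D, against 165, 158 and 152 CPM in C. BUB1B, or BUBR1, a subunit of the inhibitor of the anaphase-promoting complex, had 54.7, 57.5 and 44.7 CPM in D, against 112, 120 and 114 CPM in C. MAD2L1, or MAD2, the checkpoint protein that captures CDC20, had 46.9, 45.9 and 56.3 CPM in D, against 109, 108 and 99.5 CPM in C. None of the 3 overlapped between the groups, with log2 fold changes of −1.39 ± 0.10 (adjusted p = 2.2e-05, edgeR), −1.14 ± 0.12 (adjusted p = 0.00011, edgeR) and −1.09 ± 0.12 (adjusted p = 0.00012, edgeR). TTK, the kinase MPS1 that starts checkpoint signalling, fell by 0.99 ± 0.13 (adjusted p = 0.00032, edgeR). The read-through gene BUB1B-PAK6, which overlaps BUB1B, had 0 to 2 counts in D and 3 to 5 in C.

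MAD1L1, or MAD1, the kinetochore receptor of MAD2, moved opposite to MAD2. MAD1L1 had 43.3, 39.5 and 49.1 CPM in D, against 24.8, 27.1 and 26.1 CPM in C, a rise of 0.76 ± 0.12 (adjusted p = 0.00092, edgeR) with every D library above C. BUB3, the shared adaptor of BUB1 and BUBR1, had 228, 220 and 266 CPM in D, against 239, 248 and 238 CPM in C. The BUB3 libraries were mixed, with a log2 fold change of −0.02 ± 0.11 (adjusted p = 0.86, edgeR) and an approximate 95% interval of −0.27 to 0.22, so a 2-fold fall such as that of its partners lay outside the interval. In the RZZ complex, which brings dynein and Spindly to kinetochores, ZW10 had 47.8, 54.3 and 50.4 CPM in D, against 28.4, 27.9 and 29.5 CPM in C, and rose by 0.83 ± 0.10 (adjusted p = 0.00028, edgeR). ZW10 also serves membrane transport outside mitosis. ZWILCH had 53.9, 64.02 and 66.4 CPM in D, against 61.1, 64.1 and 67.95 CPM in C, with mixed libraries and a log2 fold change of −0.07 ± 0.11 (adjusted p = 0.64, edgeR). KNTC1, the large ROD subunit, fell by 0.63 ± 0.19 (adjusted p = 0.019, edgeR), a call lost without C replicate 1 (−0.66), C replicate 3 (−0.57) or D replicate 1 (−0.59). SPDL1, which encodes Spindly, had 23.1, 27.5 and 29.2 CPM in D, against 29.2, 31.2 and 29.7 CPM in C. The D libraries of SPDL1 lay just below those of C, and its log2 fold change of −0.18 ± 0.12 was not called (adjusted p = 0.25, edgeR), although it was with library size only (−0.33).

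The passenger complex and the shugoshins, guardians of centromeric cohesion, were all called lower with all 6 libraries. INCENP, the scaffold of the passenger complex, had 67.4, 69.9 and 43.8 CPM in D, against 124, 118 and 124 CPM in C. CDCA8, or borealin, had 43.2, 37.8 and 39.6 CPM in D, against 79.2, 84.5 and 81.8 CPM in C. The D libraries lay well below the C libraries in both, which fell by 1.01 ± 0.17 (adjusted p = 0.0013, edgeR) and 1.02 ± 0.10 (adjusted p = 9e-05, edgeR). BIRC5, or survivin, the third targeting subunit, fell less, by 0.59 ± 0.12 (adjusted p = 0.0032, edgeR), with 163, 135 and 175 CPM in D, against 244, 246 and 224 CPM in C. SGO2, a shugoshin that recruits the microtubule depolymerase KIF2C, had 10.95, 17.6 and 10.7 CPM in D, against 29.5, 25.5 and 29.3 CPM in C, and fell by 1.10 ± 0.20 (adjusted p = 0.0017, edgeR). SGO1, which protects centromeric cohesin in mitosis, fell by 0.41 ± 0.12 (adjusted p = 0.021, edgeR). The call of SGO1 was lost without C replicate 1 (−0.44), C replicate 2 (−0.37), C replicate 3 (−0.42) or D replicate 1 (−0.33).

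FPKM ratios of genes in the same complex or functional group, called partners here, were read within each library. They are ratios of mRNA and do not give the proportions of the proteins. FPKM, as deposited, is the count divided by the library total and by gene length. In a ratio of 2 genes the library total cancels, so these ratios do not depend on the scaling between libraries. They still carry the length trend of each library, described below, where 2 partners differ in length, as KNTC1 (7520 bp) and ZW10 (2893 bp) do. No ratio was corrected for that trend. Of 54 pairs within 15 complexes or functional groups, 37 had ratios that did not overlap between the groups, 26 with D below C and 11 with D above, and 17 overlapped. The pairs share genes and are not independent, and no background of ratios over all genes was computed. A ratio shows unequal change and not which partner moved. The pairs described here were picked after their values had been seen.

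The ratios that overlapped between the groups included some of pairs whose partners were both called in the same direction. HJURP/CENPA was 1.23, 1.16 and 0.896 in D, against 1.06, 1.09 and 1.29 in C, CENPL/CENPN was 0.191, 0.230 and 0.148 in D, against 0.191, 0.159 and 0.217 in C, and INCENP/CDCA8 was 0.548, 0.649 and 0.388 in D, against 0.550, 0.490 and 0.532 in C. NDC80/NUF2 likewise overlapped, at 2.21, 2.15 and 1.99 in D, against 1.66, 1.92 and 2.17 in C.

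Other ratios separated the groups completely. SKA1/SKA2 was 2.48, 2.46 and 2.16 in D, against 0.643, 0.555 and 0.692 in C, so SKA1 had the higher FPKM of the pair in D and the lower in C. BUB1B/BUB3 was 0.504, 0.549 and 0.353 in D, against 0.986, 1.01 and 1.004 in C, near 1 in C and well below it in D. MAD2L1/MAD1L1 was 0.695, 0.745 and 0.737 in D, against 2.83, 2.56 and 2.45 in C, so the gene with the higher FPKM was MAD1L1 in D and MAD2L1 in C. Within the NDC80 complex, NDC80/SPC25 was 3.41, 3.96 and 2.77 in D, against 6.02, 5.29 and 5.74 in C, and SPC24/SPC25 was 1.33, 1.04 and 0.882 in D, against 2.11, 1.87 and 2.36 in C. DSN1/PMF1 was 1.29, 1.46 and 0.970 in D, against 3.003, 2.90 and 2.89 in C, and KNTC1/ZW10 was 0.225, 0.273 and 0.172 in D, against 0.597, 0.607 and 0.651 in C.

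**Figure D3:**
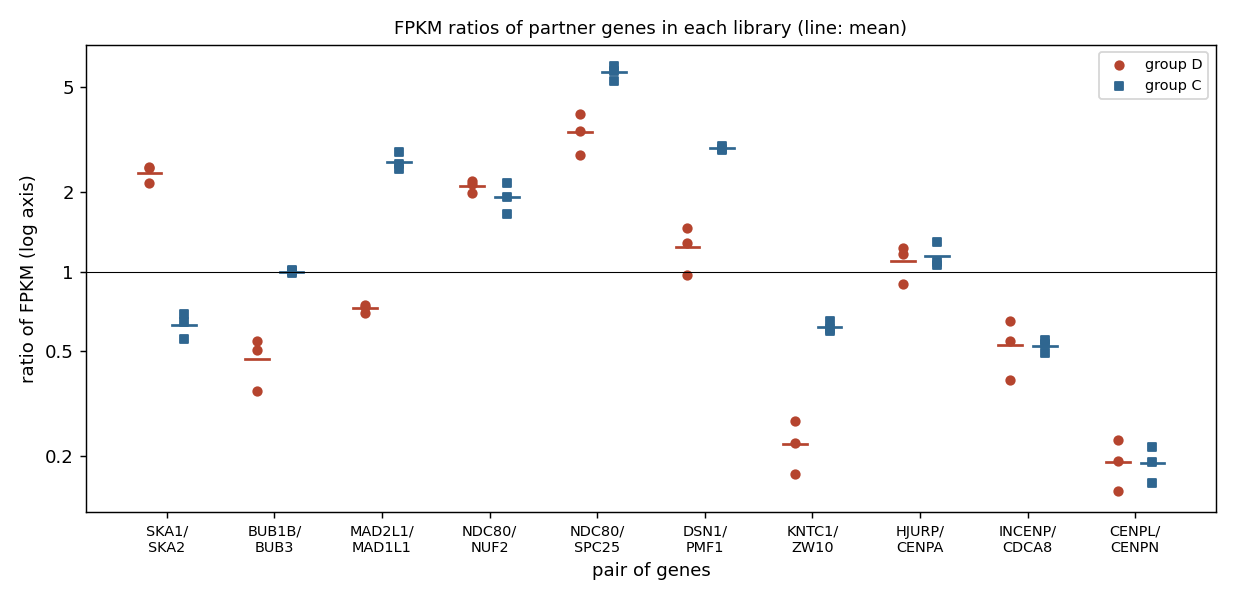
FPKM ratio on a log axis (y) of 10 pairs of partner genes (x) in the 3 D libraries (circles) and the 3 C libraries (squares), with the mean as a line. SKA1/SKA2 lies above 2 in D and below 1 in C, MAD2L1/MAD1L1 lies below 1 in D and above 2 in C, and HJURP/CENPA and CENPL/CENPN overlap.

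The order of the genes by FPKM, a level per gene length, differed between the groups. Summed over the 48 genes, FPKM was 559, 552 and 578 in D, against 835, 861 and 819 in C, and the genes held 0.176% to 0.181% of all counts in D and 0.275% to 0.280% in C. BIRC5 had the highest FPKM in both groups, 56.4 ± 6.06 FPKM in D and 94.8 ± 4.51 in C (SD, n = 3), and CENPB the next, 30.99 ± 4.03 FPKM in D and 48.7 ± 2.02 in C (SD, n = 3). HJURP ranked 25 of 48 in D and 4 in C, BUB1 13 in D and 3 in C, and CENPA 29 in D and 6 in C. SKA1 ranked 6 in D and 30 in C, with 24.95 ± 0.743 FPKM in D and 10.2 ± 0.349 in C (SD, n = 3), and ZW10 10 in D and 28 in C. The lowest gene in D was CENPC, with 0.682 ± 0.216 FPKM in D and 1.79 ± 0.128 in C (SD, n = 3). NSL1 was the lowest in C, with 0.908 ± 0.0761 FPKM in D and 0.681 ± 0.0577 in C (SD, n = 3). By class, the summed FPKM of the constitutive network was 134, 129 and 144 in D, against 131, 142 and 131 in C, with overlapping groups, while that of centromeric chromatin genes was 60.2, 52.1 and 64.3 in D, against 145, 149 and 137 in C. The class sums of the outer kinetochore were 144, 147 and 149 in D, against 185, 194 and 187 in C, those of the checkpoint 129, 141 and 134 in D, against 211, 213 and 207 in C, and those of the passenger complex and shugoshins 91.7, 82.1 and 87.1 in D, against 163, 165 and 157 in C. FPKM is scaled to the library total, and on that scale the median gene lay lower in D by the shift of −0.17 given above.

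The spread among the D libraries followed gene length. Over the 48 genes, the log2 ratio of D replicate 3 to D replicate 2 correlated with log2 gene length at Pearson r = −0.73, beside −0.67 over all 12682 genes, a description in which all points share the same 2 libraries. The 10 members longer than 6000 bp had a median log2 change against the C mean of −1.07, −0.55 and −1.41 in D replicates 1, 2 and 3, and 8 of them were called lower and 1, NSL1, higher. The 8 members shorter than 2000 bp had −0.14, −0.28 and 0.20, with 2 lower and 2 higher. The log2 fold change itself correlated with gene length at Spearman −0.27 over the members and −0.18 over all genes tested. Shares called among all genes of these lengths are not given, so nothing is read from these counts about the members. After removal of each library's length trend, the log2 fold changes of the 8 lower long genes were smaller but still called, at −1.87 for CENPF, −1.31 for CENPE, −1.08 for CENPC, −0.98 for SGO2, −0.92 for KNL1, −0.88 for INCENP, −0.56 for CENPI and −0.46 for KNTC1. CENPA (1389 bp), HJURP (3157 bp) and SKA1 (2849 bp) kept log2 fold changes of −2.13, −2.04 and 1.42. In all, 27 members were then called lower and 10 higher, beside 3854 lower and 4169 higher of all 12682 genes tested. The part of length in the other results was not tested.

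**Figure D4:**
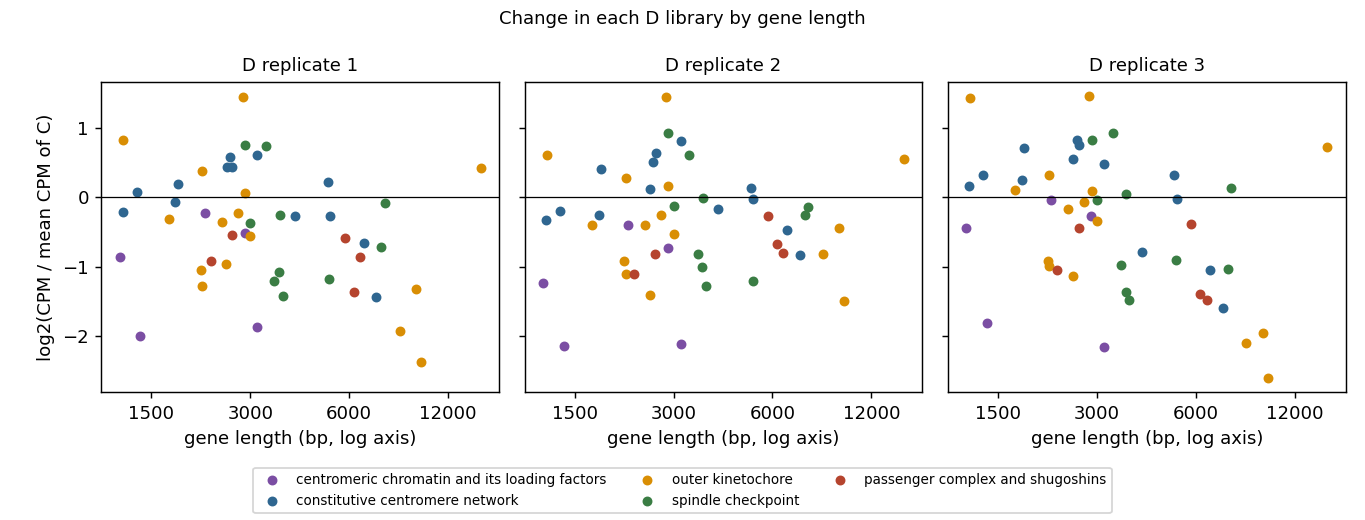
Log2 ratio of CPM in each D library to the mean CPM of C (y) against gene length on a log axis (x), with 1 panel per D replicate and points coloured by role. The 3 lowest orange points on the right, CENPE (8541 bp), KNL1 (9581 bp) and CENPF (9931 bp), lie lower in D replicate 3 than in D replicate 2, while SKA1, the highest point near 2849 bp, lies at almost the same height in each panel.

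Counts over 5 lists of genes that work beside these members stand against the 27.7% lower and 26.8% higher among all genes tested. In the lists other than the first, the counts lie near or below those shares or rest on few genes, and nothing is read from them about the lists. Of 19 tested genes among 20 other centromere and kinetochore genes, 10 were lower and 2 higher (median log2 fold change −0.62), with 1 higher without C replicate 1 or C replicate 3. PLK1, the kinase that docks on CENPU and BUB1, had 80.9, 70.9 and 67.3 CPM in D, against 349, 359 and 367 CPM in C, and fell by 2.29 ± 0.11. NDE1, a dynein adaptor at kinetochores, fell by 1.54 ± 0.16. MAD2L1BP, or p31comet, which silences the checkpoint by removing MAD2, had 33.2, 27.7 and 44.7 CPM in D, against 14.3, 15.7 and 15.2 CPM in C, and rose by 1.23 ± 0.18 (adjusted p = 0.00057, edgeR). BOD1, an inhibitor of a phosphatase at kinetochores, rose by 0.47 ± 0.14, a call lost without C replicate 1 (0.46), C replicate 2 (0.51) or C replicate 3 (0.44) and with library size only (0.32).

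Of 20 genes of the anaphase-promoting complex, securin and separase, 7 were lower and 6 higher (median −0.22), near the 27.7% and 26.8% of all genes. Securin PTTG1 (−1.73 ± 0.19) and the inhibitor FBXO5, or EMI1 (−1.72 ± 0.12), fell, and the core subunits CDC16 (0.88 ± 0.12) and ANAPC16 (0.88 ± 0.16) rose. Of 19 cohesin and condensin genes, 6 were lower and 4 higher (median −0.29), and 12 were lower without D replicate 2 and 2 higher without C replicate 1 or C replicate 3. The condensin subunit NCAPD2 had 144, 150 and 96.1 CPM in D, against 523, 514 and 544 CPM in C, and fell by 2.02 ± 0.17, and its condensin II counterpart NCAPD3 fell by 1.02 ± 0.18. The cohesin loader subunit MAU2 (1.03 ± 0.14) and the cohesin subunit STAG1 (0.76 ± 0.17) rose.

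Of 14 transcription regulators of G2 and mitosis genes, 5 were lower and 6 higher (median 0.17), with 3 lower without D replicate 1 or without any 1 of the C libraries. FOXM1, an activator of these genes, had 187, 197 and 147 CPM in D, against 275, 286 and 311 CPM in C, and fell by 0.72 ± 0.13. RBL2, or p130, of the repressor complex DREAM, fell by 0.78 ± 0.14. The MuvB core genes LIN54 (1.09 ± 0.26) and LIN37 (0.88 ± 0.16) rose. Of 24 DNA replication genes of S phase, 6 were lower and 4 higher (median −0.13), with no change of 2-fold or more among those called. TYMS (−0.82 ± 0.10) and GINS1 (−0.69 ± 0.11) fell, and RFC3 (0.49 ± 0.12) and CDC45 (0.50 ± 0.13) rose. The call of CDC45 was lost without C replicate 1 (0.41), where 2 of the 24 were higher. Each gene named from these 5 lists had an adjusted p of at most 0.021 in the edgeR test.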

How the data were processed

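RNA was prepared with RNeasy columns and sequenced from SMARTER mRNA libraries, per the labels' protocols. For each library the authors deposited whole-number gene counts, listed by symbol and not normalized. The authors also deposited FPKM values, each equal to the count divided by the library total and by 1 gene length for all 17144 genes, within a relative tolerance of 0.001. The aligner and the counter were not given in the sources used here. The mouse builds GRCm38 and mm10 are named per the submitters' processing notes, while the symbols are human, so no coordinates or sequences are given.

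Counts were tested in edgeR 4.0.16 (R 4.3.3) with filterByExpr, TMM factors and the quasi-likelihood test of D against C, Benjamini-Hochberg adjustment and a threshold of 0.05. CPM values use the TMM factors, log2 fold changes use edgeR's prior count, and standard errors were derived from the F statistic. Alternatives used DESeq2 1.42.0, limma 3.58.1 on counts and on log2(FPKM + 1) or log2(FPKM + 0.1), other scaling and filters, a lowess length correction per library (span 0.4), a replicate block, and each library left out. The test was also run on simulated counts with equal dispersion in all libraries and no length trend. That run does not bear on the wider, length-related spread in D. No replicate pair agreed within sampling noise (chi-square per degree of freedom from 6.48 to 96.0).

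The members, role classes and accompanying lists were chosen with earlier results of these data known, and they carry no test of their own. In each class the 3 called genes with the largest change in each direction, CENPF, BUB1 and up to 3 uncalled genes were named with values per library, and from each accompanying list up to 2 called genes in each direction above a mean log2 CPM of 3. Some marker genes of these lists are not reported here.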

Additional observations from a re-analysis of the deposited data

How the results depend on the processing

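Calls were compared across 18 alternative settings. In every setting, 18 of the 24 lower members, 7 of the 11 higher members and 7 of the 13 uncalled members kept their call. NSL1 is not counted among those 7 higher members, since it was called higher in 16 settings and failed the filter in the others. The count of lower members ranged from 19 to 24 and that of higher members from 8 to 11 when 1 library was left out, and from 18 to 28 and from 7 to 11 under the other settings. The counts over all genes moved as well. With 1 library left out, 2780 to 3879 genes were lower and 2627 to 3888 higher, of 12808 to 12850 tested. Under the other settings 2472 to 4449 were lower and 2209 to 4169 higher, of 10563 to 17144 tested. Higher members numbered 7 with limma on log2(FPKM + 1) and 7 on log2(FPKM + 0.1), where NSL1 failed the filter. The members' median log2 fold change of −0.35 became −0.50 with library size only, −0.44 with log2(FPKM + 1), −0.55 with log2(FPKM + 0.1) and −0.44 with log2(FPKM + 1) and no filter, scales on which the median of all genes was −0.17, −0.14, −0.17 and −0.02, and it lay between −0.38 and −0.29 with 1 library left out. Lower outer kinetochore genes numbered 8, 5 at an adjusted p under 0.01, and 5 to 8 with 1 library left out. The cause of these shifts was not tested.

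Signs reversed for 6 uncalled genes. CENPH (0.08) stood at −0.076 with library size only, −0.091 with length trends removed, and −0.071, −0.074 and −0.071 on log2(FPKM + 1), log2(FPKM + 0.1) and log2(FPKM + 1) with no filter, and it ranged from −0.045 without D replicate 3 to 0.24 without D replicate 2. CENPM (−0.01) stood at 0.0069 with DESeq2 and 0.017 with RLE factors, and ranged from −0.15 without D replicate 3 to 0.13 without D replicate 2. SKA3 (0.10) stood at −0.048 with library size only and −0.038, −0.040 and −0.038 on the same 3 FPKM scales. BUB3 (−0.02) stood at 0.20 with length trends removed and 0.0045 with RLE factors, and ranged from −0.099 without D replicate 3 to 0.064 without D replicate 2. CENPW (−0.12) ranged from −0.26 without D replicate 3 to 0.015 without D replicate 2, and ZWILCH (−0.07) from −0.12 without D replicate 3 to 0.019 without D replicate 1. Among the other genes named, BOD1 (0.30), STAG1 (0.49), LIN54 (0.69) and RFC3 (0.26) were not called on log2(FPKM + 1) with no filter.

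No label says whether same-numbered D and C libraries are paired. Deviations from the group mean correlated at 0.01, −0.48 and −0.44 between same-numbered libraries. D replicate 2 with C replicate 3 gave 0.41, and D replicate 3 with C replicate 2 gave 0.52. These values cannot decide on pairing, since each group was centred on its own mean and the spread in D followed gene length. With a replicate block 22 members were lower and 8 higher, beside 2977 lower and 2694 higher of all 12682 genes tested. SGO1, DSN1, CENPQ, CENPT and ZWINT lost their calls with the block. D libraries spread more than C libraries (biological coefficient of variation 0.189 in D and 0.0752 in C), which limits what 3 libraries can show for small changes.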
